A study of Mus musculus with 8 samples.

Results

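Bidirectional coding promoters were examined in the hepatocyte ATAC-Seq peak lists. These are the stretches between 2 protein-coding genes that lie head to head on opposite strands, with transcription start sites (TSSs) at most 1 kb apart. GENCODE M21 on mm10 held 1200 such pairs, made from 2360 of 21938 protein-coding genes. In 754 pairs a gap separated the TSSs, and in 446 pairs the 5′ ends of the genes overlapped. The intervals of the 8 lists were merged into 315767 regions, and the members were the regions that overlapped the span between both TSSs or 200 bp on either side. There were 1167 members, which served 1161 pairs, and 39 pairs had no region in any list. A member held 1 pair in 1127 cases and more than 1 pair in 40 cases, and 44 pairs touched more than 1 region. The choice of members used gene positions and whether any list held an interval there, and no fold, rank, width or time point.

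ATAC-Seq marks open DNA by the insertion of sequencing adapters with the Tn5 transposase. The libraries were made from nuclei of hepatocytes isolated by collagenase perfusion from C57BL/6 mice aged 10 to 12 weeks on a normal diet, and the study's methods describe male mice of the C57BL/6J substrain. The groups were undamaged liver (0 h) and regrowing liver, taken 48, 72 or 96 h after surgeons had removed a portion of it (partial hepatectomy, PHx), with 2 libraries in each of the 4 groups. The lists held 105206 to 154577 distinct intervals per library and no read counts, so the sequencing depth is unknown. The name of the list for 72 h replicate 2 lacks a tag that the names of the other 7 share, and the labels do not tie libraries to mice. The study's methods describe hepatocytes from several mice at each of the 4 times and statistics over independent replicates, and p-values here measure the spread between these libraries. Of the hepatocyte markers, 5 of 8 had an interval within 1 kb of the TSS in all 8 lists, including Hnf4a, Apoa1 and Cps1, whereas Alb, the gene of serum albumin, had one in 3 lists only. Of the markers of other liver cells, those present in all 8 lists were 1 of 6 for Kupffer cells and leukocytes, 2 of 5 for endothelial cells, 2 of 6 for stellate cells and fibroblasts and 2 of 4 for cholangiocytes, with Ptprc, Cd5l, Stab2, Lyve1, Acta2, Krt19 and Krt7 at 0 lists. The median percentile of strength within a list was 63.7 over the hepatocyte markers, with Hnf4a at 88.1 to 99.0, and 20.5 over those of Kupffer cells and leukocytes, 41.1 of endothelial cells, 39.9 of stellate cells and fibroblasts and 83.4 of cholangiocytes. Of those present, Epcam of cholangiocytes had percentiles of 72.4 to 97.9, Lrat of stellate cells 70.9 to 88.2 and Col1a1 of fibroblasts 75.4 to 88.8, and the part of such cells in the results was not tested. A bulk library cannot tell fewer cells of a type from less open DNA per cell.

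Transcription from a bidirectional promoter starts in both directions from 1 shared stretch of open, usually CpG-rich DNA that lacks nucleosomes. Many such pairs join genes that most cells need, among them genes of DNA repair, mitochondria and translation, and the core histones H2A and H2B are often paired in this way. Liver regeneration is a setting of interest because PHx brings quiescent hepatocytes into the cell cycle, and several pairs hold genes of DNA replication.

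The gaps between the TSSs of 10 pairs are given first, because they belong to members described later. All are on the forward strand of mm10 (GRCm38.p6), exclude both TSSs and lie outside both genes. Capitals mark exact matches, on either strand, to 1 of the 14 motifs listed further on. The first 3 gaps belonged to 3 of the 5 strongest members. Rpgrip1l/Fto and Cep128/Tshr each held the longer form of the ZNF143 motif, read on the reverse strand, whereas the Deaf1/Tmem80 gap held no match to any of the motifs. The gaps of Mtrex/Dhx29 and Rpl9/Lias, which are not shown, also held none. The longer ZNF143 form was added after the gaps of the strongest members had been read. Its matches in the Rpgrip1l/Fto and Cep128/Tshr gaps were thus fixed in advance. The Rpgrip1l/Fto gap is chr8:91313263-91313524, the Cep128/Tshr gap is chr12:91384410-91384562 and the Deaf1/Tmem80 gap is chr7:141327691-141327738. Rpgrip1l and Cep128 encode proteins of the cilium base and the centriole, Fto an RNA demethylase and Tshr the thyrotropin receptor.
Rpgrip1l/Fto: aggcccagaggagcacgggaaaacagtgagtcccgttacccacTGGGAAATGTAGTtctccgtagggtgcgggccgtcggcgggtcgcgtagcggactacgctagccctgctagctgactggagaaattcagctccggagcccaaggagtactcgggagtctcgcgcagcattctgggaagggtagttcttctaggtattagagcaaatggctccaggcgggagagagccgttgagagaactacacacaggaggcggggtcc
Cep128/Tshr: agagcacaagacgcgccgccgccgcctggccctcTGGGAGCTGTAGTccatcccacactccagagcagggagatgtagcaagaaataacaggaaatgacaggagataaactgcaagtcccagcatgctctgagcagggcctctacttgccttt
Deaf1/Tmem80: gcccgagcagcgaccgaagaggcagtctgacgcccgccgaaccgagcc

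The next 3 gaps belong to pairs with a gene of DNA repair or replication. They are chr11:101551956-101552148 for Brca1/Nbr1 (BRCA1 acts in homologous recombination and NBR1 in autophagy), chr11:75348325-75348432 for Rpa1/Smyd4 (RPA1 binds single-stranded DNA) and chr14:50807733-50807840 for Ccnb1ip1/Parp2 (PARP2 responds to DNA breaks). The GC content of these gaps was 50.3%, 68.5% and 51.9%. The Rpa1/Smyd4 gap held 2 CCAAT boxes and 2 GC boxes, the Brca1/Nbr1 gap held 1 CCAAT box, and the Ccnb1ip1/Parp2 gap held 1 E-box and 1 GC box.
Brca1/Nbr1: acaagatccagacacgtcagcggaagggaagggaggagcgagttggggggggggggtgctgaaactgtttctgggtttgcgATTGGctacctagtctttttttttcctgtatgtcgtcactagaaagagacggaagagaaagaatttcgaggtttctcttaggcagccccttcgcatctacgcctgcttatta
Rpa1/Smyd4: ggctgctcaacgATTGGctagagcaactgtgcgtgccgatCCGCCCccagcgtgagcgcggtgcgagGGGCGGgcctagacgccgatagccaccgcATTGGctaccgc
Ccnb1ip1/Parp2: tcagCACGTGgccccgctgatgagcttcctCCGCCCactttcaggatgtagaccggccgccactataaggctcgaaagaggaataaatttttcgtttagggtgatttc

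The last 4 gaps belong to members named for a small unadjusted p between PHx and 0 h libraries. These are Xab2/Pet100 at chr8:3621317-3621547, Gtf2f1/Gm17949 at chr17:57011289-57011468, Hist1h2ae/Hist1h2bg at chr13:23571221-23571395 and Pip4k2a/4930426L09Rik at chr2:18998127-18998342. The Pip4k2a/4930426L09Rik gap had a GC content of 81.5% with 40 CpGs and 6 GC boxes, while the histone gap had 38.3% with 1 CpG, 2 CCAAT boxes and 1 TATA box.
Xab2/Pet100: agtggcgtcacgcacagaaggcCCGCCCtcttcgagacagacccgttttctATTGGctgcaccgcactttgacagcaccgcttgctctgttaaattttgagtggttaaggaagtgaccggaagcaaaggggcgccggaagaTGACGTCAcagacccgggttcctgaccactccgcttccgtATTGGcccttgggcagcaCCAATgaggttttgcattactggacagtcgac
Gtf2f1/Gm17949: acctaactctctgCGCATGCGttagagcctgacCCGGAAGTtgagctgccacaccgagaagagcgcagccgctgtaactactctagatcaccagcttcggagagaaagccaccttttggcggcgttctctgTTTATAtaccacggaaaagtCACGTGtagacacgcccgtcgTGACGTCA
Hist1h2ae/Hist1h2bg: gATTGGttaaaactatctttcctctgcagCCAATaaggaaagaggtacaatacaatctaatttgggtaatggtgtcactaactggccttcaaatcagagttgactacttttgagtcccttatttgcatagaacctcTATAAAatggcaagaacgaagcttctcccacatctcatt
Pip4k2a/4930426L09Rik: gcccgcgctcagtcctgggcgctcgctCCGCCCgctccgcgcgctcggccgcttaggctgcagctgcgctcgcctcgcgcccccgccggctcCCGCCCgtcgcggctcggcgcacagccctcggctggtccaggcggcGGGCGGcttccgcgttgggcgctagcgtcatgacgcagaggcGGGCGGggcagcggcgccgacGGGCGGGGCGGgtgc

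Nearly all bidirectional promoters were open in every library. Between 1108 (48 h replicate 1) and 1130 (48 h replicate 2) of the 1167 members had an interval in a given list, and 1087 (93.1%) had one in all 8. The same share was 78.4% for 12217 single coding promoters, which are regions within 200 bp of the TSS of a coding gene outside the pairs, and 18.2% for all merged regions. Just 24 members (2.06%) were found in 1 list only, against 52.5% of all regions. The windows searched were wider for pairs (median 582 bp) than for single promoters (401 bp), and with no bases added on either side the share of members in all 8 lists was 94.1%. When each list was cut to its 50000 strongest intervals the shares were 87.4% for members and 78.3% for single promoters.

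**Figure D1:**
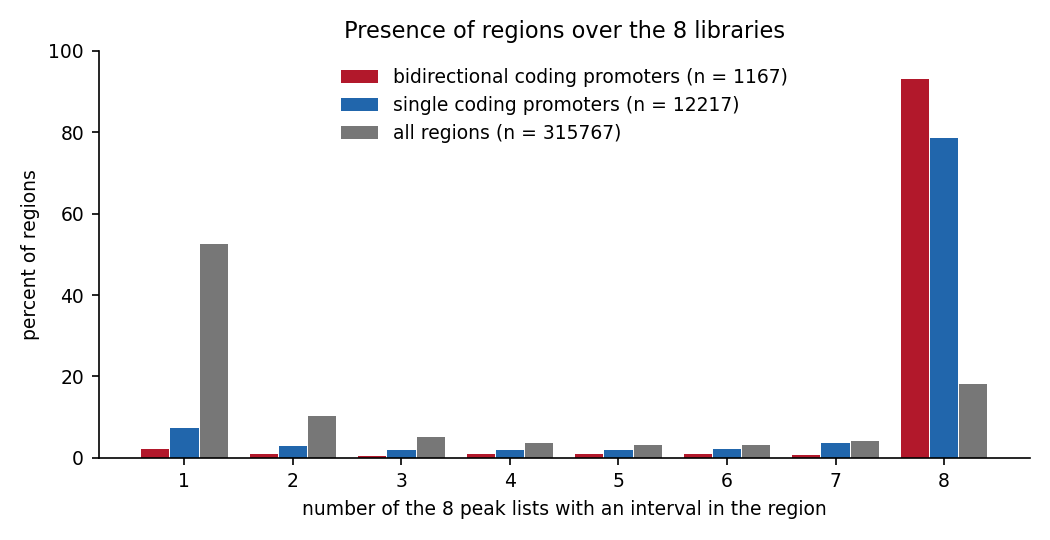
Share of regions (percent, vertical axis) by the number of peak lists, from 1 to 8, that hold an interval in them, for bidirectional coding promoters (red), single coding promoters (blue) and all merged regions (grey). Members are concentrated at 8 lists (93.1%), while 52.5% of all regions sit at 1 list.

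The 80 members that were missing from at least 1 list were narrow and weak, with a median width of 240 bp and a median percentile of 32.7. The within-list percentile orders the intervals of a list by the authors' −log10 p, with 100 as the strongest, and here is averaged over the lists in which the region occurs. They included Wrap53/Trp53, which joins a telomerase assembly factor with the gene of the p53 tumour suppressor, with an interval in 7 lists and a mean percentile of 55.0. The imprinted pairs Peg3/Usp29 and Sgce/Peg10 had intervals in 7 and 6 lists. Hspa1a/Hspa1l, a pair of heat shock protein genes, had a region in 6 lists at a mean percentile of 44.4 and another in 1 list. At Pecam1/Milr1 and Sncg/Mmrn2, of which Pecam1 and Mmrn2 are genes of endothelial cells, each of 2 regions was found in 1 list. Within 1 kb of the Pecam1 TSS, however, all 8 lists held an interval, at percentiles of 6.87 to 69.4. The 39 pairs with no region included 3 histone pairs (Hist1h2bq/Hist1h2ao, Hist1h2ap/Hist1h2br and Hist1h2ba/Hist1h2aa) and pairs such as Il11/Tmem190. The pairs named in this paragraph were chosen after their values were seen.

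The 1087 members present in all lists were strong and wide. Their median percentile was 93.0 and 92.5 (0 h), 90.3 and 91.9 (48 h), 92.3 and 92.3 (72 h) and 92.5 and 93.3 (96 h) (replicates 1 and 2). In each library this was above the median of the 9584 single promoters present in all lists, which lay between 89.0 and 91.6, and above that of all 57473 such regions, which lay between 72.1 and 80.9. The median width, the bases covered by the intervals of a list within the region, was 1044 and 1012 bp (0 h), 916 and 1045 bp (48 h), 1006 and 1039 bp (72 h) and 1049 and 884 bp (96 h). Single promoters covered 790 to 945 bp and all regions 452 to 598 bp. The narrowest medians of the members came from 48 h replicate 1 and 96 h replicate 2, which also gave the narrowest medians over all regions, and the replicates of 0 h and of 72 h lay closer together in width than those of 48 h and of 96 h.

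**Figure D2:**
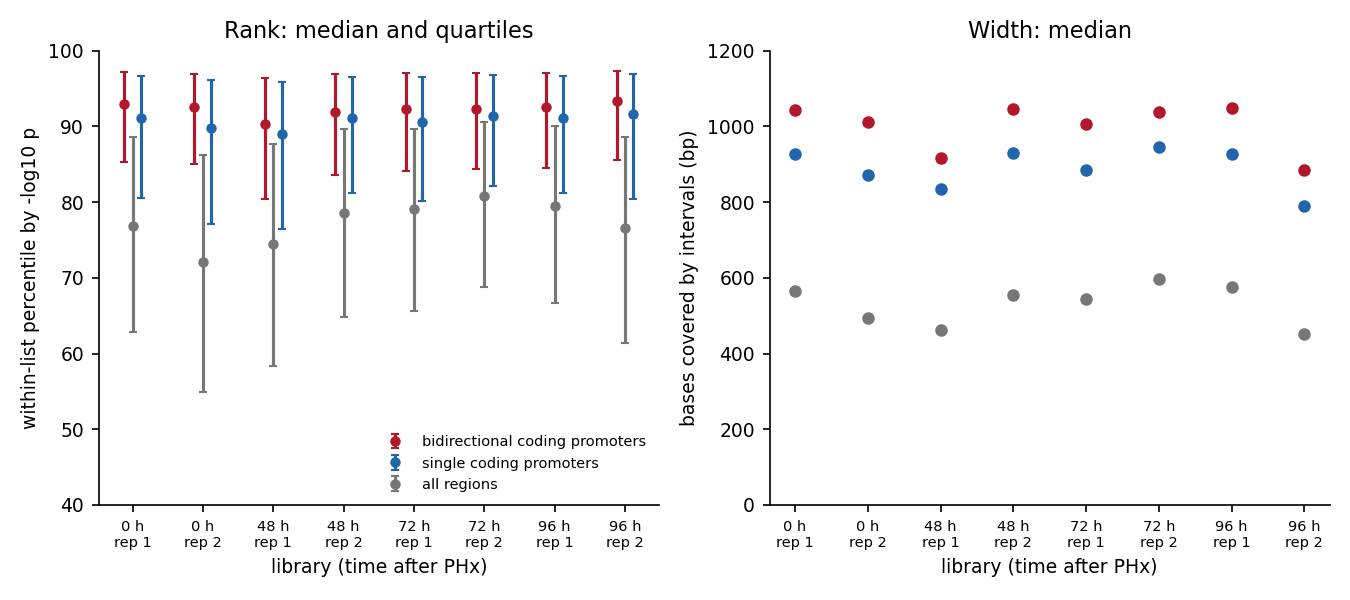
Left, within-list percentile by −log10 p (points, medians, with bars from the 25th to the 75th percentile of the regions) and right, median bases covered by intervals (bp), in each of the 8 libraries for regions present in all 8 lists. Bidirectional coding promoters (red) lie above single coding promoters (blue) and all regions (grey) in every library, and the width of all classes is lowest in 48 h replicate 1 and 96 h replicate 2.

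The fold, the peak caller's enrichment over local background, had a median over members of 11.8 and 12.2 (0 h), 8.34 and 8.98 (48 h), 11.1 and 10.2 (72 h) and 10.7 and 11.2 (96 h). Both 48 h libraries were lower than the other 6. The median over all regions was also lowest in both 48 h libraries (6.04 and 6.53, against 7.14 to 8.49 in the others), so folds were put on 1 scale by quantile normalisation before time points were compared. On that scale the medians of the members were 3.39 and 3.46 (log2 fold) at 0 h, 3.39 and 3.38 (48 h), 3.37 and 3.32 (72 h) and 3.31 and 3.51 (96 h). The groups overlapped except at 72 h, where both medians lay under both 0 h medians by less than the difference between the 96 h replicates.

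Members differed widely among themselves. The mean percentile of the members in all lists ran from 40.7 to 99.97, with quartiles of 84.4 and 96.5, and the mean width ran from 231 to 1998 bp. The strongest were Rpgrip1l/Fto, Cep128/Tshr, Prkra/Pjvk and Deaf1/Tmem80, each with a mean percentile of 99.97, and Acin1/1700123O20Rik with 99.91. The weakest were Spaca9/Ak8 (40.7), Rpl9/Lias (49.3), which joins a ribosomal protein gene with lipoic acid synthase, and Ncor1/Pigl (50.9). The widest were Cep57/Fam76b (1998 bp), Hs2st1/Selenof (1974 bp) and Eef1d/Tigd5 (1946 bp). The narrowest were Fam53a/Gm9903 (231 bp), Tmem189/Cebpb (244 bp) and 9430097D07Rik/Pip5kl1 (246.5 bp).

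The open region often reached over both start sites. A single interval spanned both TSSs in all 8 lists in 761 of 1200 pairs (63.4%), and in no list in 158 pairs. The share was highest for pairs with a gap of up to 100 bp (86.9% of 312 pairs). It was 77.2% for gaps over 100 and up to 200 bp, 62.7% for gaps over 200 and up to 500 bp and 14.3% of 70 pairs for longer gaps. Where the 5′ ends overlapped the share was 74.2% for overlaps under 200 bp and 38.4% for longer overlaps. Presence in all 8 lists varied much less with distance, from 85.7% for the longest gaps to 95.2% for the shortest. The median width also changed little. It was 945 bp for gaps of up to 100 bp and 1039 bp for gaps over 100 and up to 200 bp. It was 1067 bp for gaps over 200 and up to 500 bp and 974 bp for the longest gaps. The width thus rose somewhat with gaps of up to 500 bp and was lower beyond. The summit lay a median of 80.0 bp from the midpoint of the TSSs for the shortest gaps, 89.25 bp for gaps over 100 and up to 200 bp and 360.5 bp for the longest gaps. These shares are descriptions of how intervals lie over annotated 5′ ends.

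**Figure D3:**
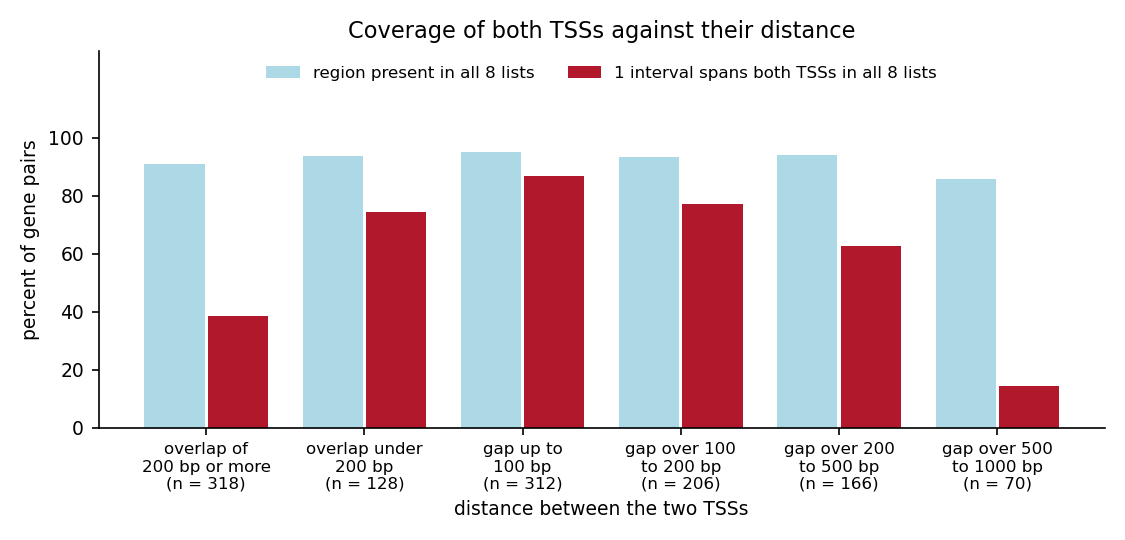
Percent of gene pairs (vertical axis) whose region is present in all 8 lists (light blue) and in which 1 interval spans both TSSs in all 8 lists (red), by the distance between the TSSs in bp, from overlapping 5′ ends on the left to gaps of up to 1000 bp on the right. The red bars go from 86.9% at gaps of up to 100 bp to 14.3% at gaps over 500 bp, while the light blue bars stay between 85.7% and 95.2%.

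The sequence under the summits was CpG-rich. In 200 bp around the strongest summit, the median GC content of the 1087 members was 65.5%, close to that of single promoters (67.0%) and above that of the 46802 other regions present in all lists (50%). The ratio of observed to expected CpGs exceeded 0.6 in 87.7% of members, 79.3% of single promoters and 8.81% of other regions. The GC box bound by SP and KLF factors (GGGCGG) was present in 63.7% of members, 62.8% of single promoters and 9.55% of other regions. The CCAAT box bound by NFY (CCAAT) was present in 28.4%, 24.3% and 24.6%, in the same order. The ETS motif (CCGGAAGT) was found in 10.1% of members, 5.79% of single promoters and 0.421% of other regions.

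The motif of ZNF143, a factor of many housekeeping promoters, was searched in a longer form (ACTACA and TCCCA with 2 bases between them), which was added after the gaps of the strongest members had been read, and in a core form (ACTACAA). The longer form was present in 58 members (5.34%), in 2.75% of single promoters and in 0.212% of other regions, and in 0.733% of all regions. Members that held it had a median percentile of 96.1, against 91.5 for members without it, and single promoters with and without it had 95.5 and 89.8. The core form was present in 6.07% of members, 2.92% of single promoters and 1.82% of other regions. Motifs rarer in members than in other regions were the TATA box (TATAAA, 1.47% against 6.03%), AP-1 (TGANTCA, 1.93% against 8.67%), FOXA (TGTTTAC, 0.920% against 5.64%) and HNF4 (CAAAGTCCA, 0.460% against 1.68%), and single promoters had 2.38%, 2.54%, 1.37% and 0.198%. The members with a TATA box had a median percentile of 79.2, against 91.8 for those without. Shares in members, single promoters and all regions were 2.39%, 1.84% and 0.506% for NRF1 (CGCATGCG), 3.96%, 2.93% and 1.42% for YY1 (AAGATGGC), 1.47%, 1.69% and 0.572% for CREB (TGACGTCA), 4.42%, 4.37% and 3.36% for the E-box of MYC and USF (CACGTG) and 1.56%, 1.02% and 0.371% for E2F (TTTCCCGC). Both strands were searched, the core and the longer ZNF143 forms can overlap, and a match is a run of letters, not a measured binding site.

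The comparison over time asked whether accessibility at these promoters differed between regenerating and undamaged liver. No member passed the test in fold or width at 48, 72 or 96 h. The test was limma's moderated test on 57473 regions with Benjamini-Hochberg adjustment, and it called 0 members for each measure and time (0.0% of all regions, both for fold and for width). The smallest adjusted p of a member was 0.348 at 48 h, 0.620 at 72 h and 0.783 at 96 h in fold, and 0.564, 0.826 and 0.946 in width. At an unadjusted p under 0.05 there were 41 members at 48 h (3.77%, against 9.89% of all regions), 23 at 72 h (2.12%, against 6.28%) and 13 at 96 h (1.20%, against 5.68%). Of these, 10, 2 and 3 lay higher after PHx and 31, 21 and 10 lay lower. Over all regions at that level, 2814 lay higher and 2868 lower at 48 h, 2080 and 1530 (72 h), and 1757 and 1509 (96 h), and among single promoters the counts were 305 and 241, 184 and 189, and 154 and 90. The member counts rested on single libraries. They were much lower at all 3 times without 0 h replicate 2, and at 48 and 72 h the share over all regions fell as well. At 72 h members and all regions both fell without 72 h replicate 2 and rose without 96 h replicate 1. At 96 h there were more members without 96 h replicate 1 or 2 and fewer without a 48 h library. Such fits leave 1 library in a group, so their counts are not given. With the within-list rank in place of the fold the counts were 102, 87 and 35 (9.38%, 8.0% and 3.22%, against 10.9%, 7.54% and 6.05% of all regions). In normalised fold, the share of single promoters at that level was 5.70%, 3.89% and 2.55%. With 2 libraries in each group and a median standard error of 0.256 on the log2 scale, small differences could not be detected. Larger ones also went uncalled, such as 1.25 at Gabra4/Gabrb1 and −1.02 at Xab2/Pet100 at 48 h (limma's adjusted p = 0.348 for both).

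The median difference of the members from 0 h was −0.04 (log2 fold) at 48 h, −0.06 at 72 h and −0.00070 at 96 h. It was 0.0074, −0.05 and 0.0091 for single promoters and 0.0026, −0.02 and −0.0047 for all regions. The direction for the members at 48 h rested on 0 h replicate 2, without which the median was 0.0041, and the median at 96 h was 0.04 when that library was left out, 0.10 when 96 h replicate 1 was left out and −0.10 when 96 h replicate 2 was left out. From the 10th to the 90th percentile, the differences of the members ran from −0.38 to 0.27 at 48 h, from −0.38 to 0.20 at 72 h and from −0.27 to 0.24 at 96 h, a narrower span than over all regions (−0.47 to 0.47, −0.40 to 0.42 and −0.39 to 0.40). Over the 8 libraries the log2 fold of a member ranged by a median of 0.63, against 0.66 for single promoters and 0.84 for all regions.

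**Figure D4:**
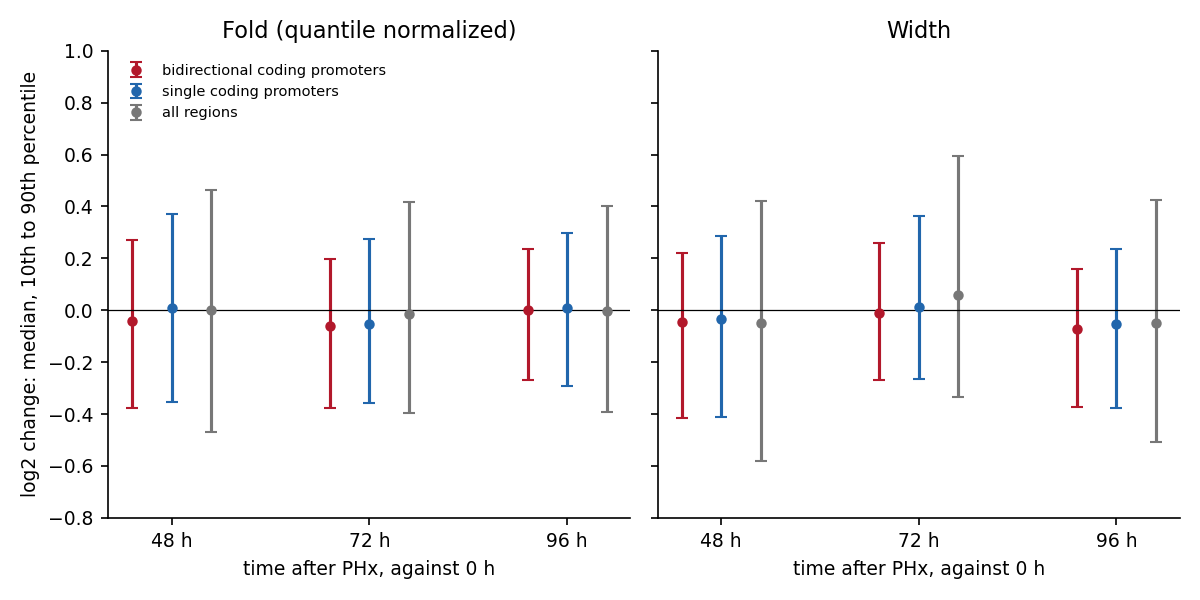
Log2 change from 0 h (vertical axis) at 48, 72 and 96 h in quantile-normalised fold (left) and in width (right), for bidirectional coding promoters (red), single coding promoters (blue) and all regions (grey). Points are medians over regions and bars run from the 10th to the 90th percentile of the regions. The medians lie close to 0 in all classes, from −0.07 to 0.06, and the bars of the members are shorter than those of all regions.

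Both libraries of a time point lay above both 0 h libraries in fold in 182 members at 48 h (16.7%, against 20.8% of all regions), 125 at 72 h (11.5%, against 18.4%) and 147 at 96 h (13.5%, against 16.2%). They lay below both in 242 members at 48 h (22.3%, against 20.3%), 317 at 72 h (29.2%, against 20.0%) and 155 at 96 h (14.3%, against 16.7%). At 72 h the members that did not overlap were thus mostly lower, and single promoters leaned the same way (15.9% above and 25.1% below). The split depended on the scale. With the within-list percentile in place of the normalised fold, 129 members lay above and 312 below at 48 h, 175 and 262 (72 h), and 178 and 165 (96 h). The members above were 11.9%, 16.1% and 16.4%, against 24.3%, 35.3% and 25.6% of all regions, and the share of all regions below was 17.5%, 9.68% and 10.8%. A percentile also depends on how many intervals a list holds, which differed between the libraries. With folds as deposited, 7 members (0.644%, against 4.06% of all regions) lay above and 861 (79.2%, against 55.9%) below at 48 h. On that scale 65 (5.98%, against 13.9%) lay above and 451 (41.5%, against 26.2%) below at 72 h. At 96 h, 64 (5.89%, against 9.81%) lay above and 315 (29.0%, against 25.3%) below. In width, both libraries lay above in 146 members at 48 h (13.4%, against 12.9%), 177 at 72 h (16.3%, against 22.3%) and 87 at 96 h (against 11.8%). They lay below in 267 (24.6%, against 21.8%), 210 (19.3%, against 13.5%) and 261 members (24.0%, against 18.5%).

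Among the members with the smallest unadjusted p, Gtf2f1/Gm17949 (chr17:57010653-57012086) was named at all 3 times. Gtf2f1 encodes a subunit of the general transcription factor TFIIF. Its fold was 12.6 and 12.9 (0 h), 6.05 and 5.38 (48 h), 8.13 and 6.09 (72 h) and 7.10 and 5.82 (96 h). All 6 PHx libraries were lower than both 0 h libraries, with no overlap. The difference in normalised log2 fold was −0.75 ± 0.25 (SE) at 48 h, −0.79 ± 0.25 at 72 h and −0.84 ± 0.25 at 96 h, and limma's adjusted p was 0.373, 0.667 and 0.783. Its width was 996 and 1135 bp (0 h), 1219 and 1232 bp (48 h), 1121 and 968 bp (72 h) and 999 and 1171 bp (96 h), so that both 48 h libraries were wider than both 0 h libraries while the other times overlapped with 0 h. The 3 times share the same 0 h libraries.

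Xab2/Pet100 (chr8:3620870-3621839) joins a factor of transcription-coupled repair and splicing with an assembly factor of cytochrome c oxidase. Its fold was 9.86 and 16.8 (0 h), 4.82 and 4.84 (48 h), 8.79 and 6.95 (72 h) and 8.38 and 9.75 (96 h). The 48 h libraries were the lowest of the 8. The 0 h libraries were the highest before normalisation only, since the normalised log2 fold was 3.13 in 0 h replicate 1 and 3.32 in 96 h replicate 2. The log2 difference at 48 h was −1.02 ± 0.29 (SE; adjusted p = 0.348), and −0.62 without 0 h replicate 2. At Qrsl1/Rtn4ip1 (chr10:43901227-43902464), with 2 genes of mitochondrial proteins, the fold was 12.5 and 15.9 (0 h), 4.79 and 6.87 (48 h), 10.1 and 8.28 (72 h) and 7.62 and 10.1 (96 h). All 6 PHx libraries were again lower than both 0 h libraries, and the log2 difference at 48 h was −0.90 ± 0.28 (adjusted p = 0.360).

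The fold at Pip4k2a/4930426L09Rik (chr2:18997343-18998613), where Pip4k2a encodes a phosphoinositide kinase, was 17.8 and 10.5 (0 h), 16.7 and 19.8 (48 h), 21.1 and 18.5 (72 h) and 20.6 and 15.3 (96 h). Before normalisation the 0 h and 48 h values overlapped. The normalised log2 difference was 0.79 ± 0.28 (SE) at 48 h and 0.64 ± 0.28 at 72 h (adjusted p = 0.399 and 0.773). Without 0 h replicate 2, which held the lowest value, the difference at 48 h was 0.43. The 72 h difference leaned on that library too, with normalised log2 folds of 4.32 and 4.21 at 72 h against 3.99 and 3.26 at 0 h. Gabra4/Gabrb1 (chr5:71657231-71658486), a pair of genes of GABA receptor subunits, had folds of 6.83 and 3.8 (0 h), 9.24 and 9.64 (48 h), 5.95 and 11.1 (72 h) and 10.5 and 5.32 (96 h). Only the 48 h libraries lay together above both 0 h libraries, by 1.25 ± 0.36 on the log2 scale (adjusted p = 0.348). Gorasp1/Ttc21a (chr9:119937342-119938007), which joins a Golgi stacking protein with a cilium gene, had folds of 4.47 and 4.63 (0 h), 4.31 and 6.02 (48 h), 6.96 and 5.98 (72 h) and 7.70 and 6.00 (96 h). Both 72 h and both 96 h libraries were higher than both 0 h libraries, with log2 differences of 0.50 ± 0.25 and 0.65 ± 0.25 (adjusted p = 0.816 and 0.851). After normalisation both 48 h libraries were higher as well, by 0.49 ± 0.25 (adjusted p = 0.547).

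The other members named by the same rule were not called either. Higher values were given by 9430097D07Rik/Pip5kl1 at 48 h (log2 difference 0.84 ± 0.27, SE), Dok1/Loxl3 at 72 h (0.68 ± 0.28) and Cyb5d1/Naa38 and Echs1/Paox at 96 h (0.60 ± 0.27 and 0.53 ± 0.24). Echs1 encodes an enzyme of mitochondrial fatty acid oxidation. Single libraries carried part of these values, since the difference was 0.45 for Dok1/Loxl3 without 0 h replicate 2 and 0.33 for Echs1/Paox without 96 h replicate 2. Lower values were given by Recql5/Sap30bp at 72 h (−1.08 ± 0.36, and −0.65 without 72 h replicate 2), where Recql5 encodes a DNA helicase, and by Sart3/Iscu and Nt5c3b/Klhl10 at 96 h (−0.63 ± 0.23 and −0.89 ± 0.33). At Nt5c3b/Klhl10 the replicates at 96 h were far apart, with folds of 10.1 and 4.91, and the difference was −0.47 without 96 h replicate 2.

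**Figure D5:**
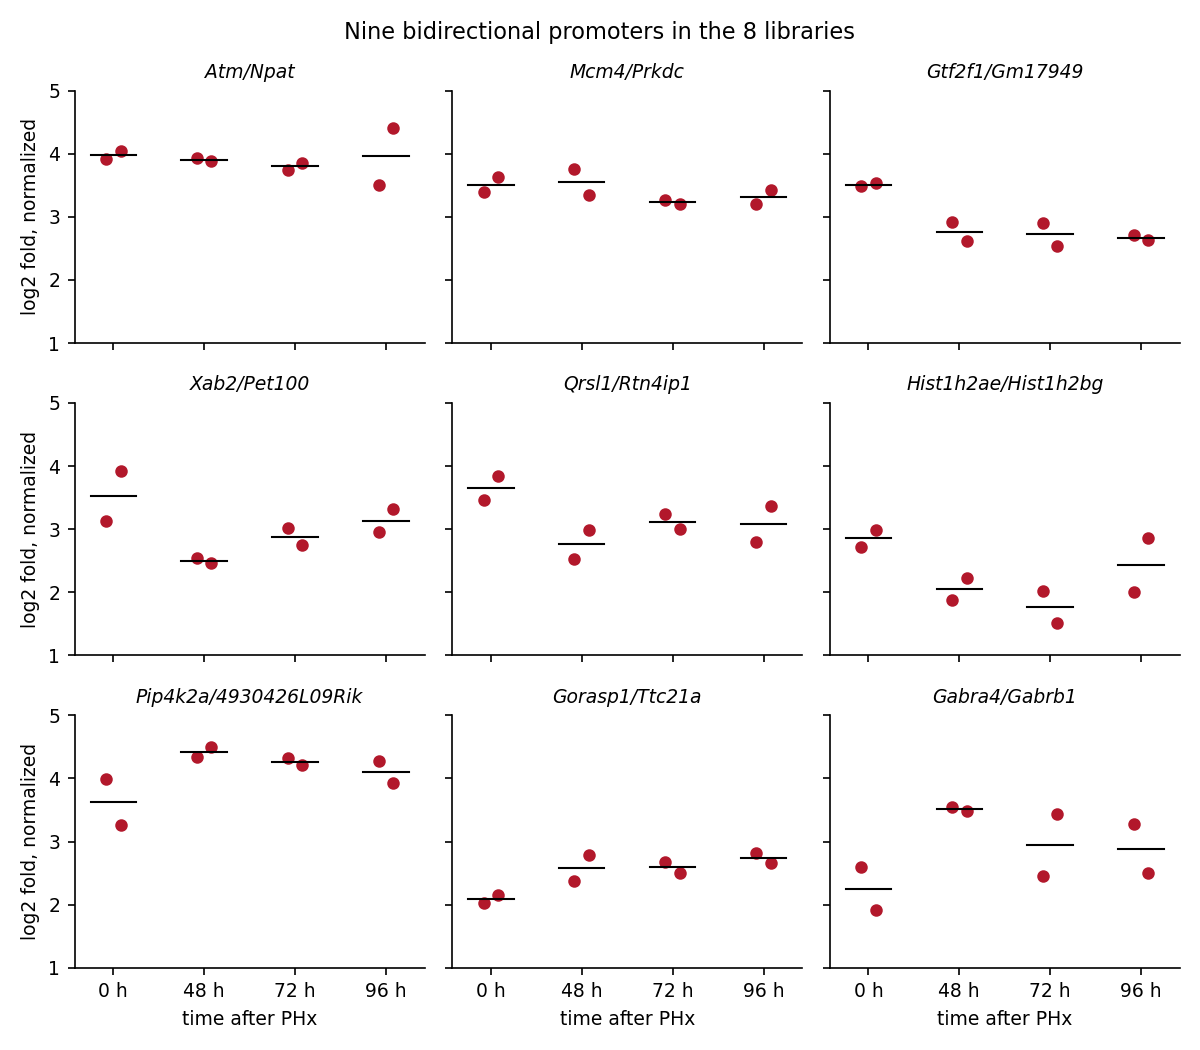
Quantile-normalised log2 fold (vertical axis) of 9 bidirectional promoters in the 8 libraries, by time after PHx. Points are the 2 libraries of a time point, left for replicate 1 and right for replicate 2, and the line is their mean. In Atm/Npat the 96 h replicates lie further apart than those of the other times, and Gtf2f1/Gm17949 lies near 3.5 in both 0 h libraries and under 3 in the 6 PHx libraries.

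Few members appeared or disappeared. An interval in both 48 h lists and neither 0 h list was found for 2 members (1.06% of all regions), Rpl35/Arpc5l and Fhod1/Slc9a5. At 72 h there were 4 (2.81% of all regions), among them Fhod1/Slc9a5, Draxin/Mad2l2 and Odf3l1/Cspg4, and at 96 h there was 1 (1.56%), Draxin/Mad2l2. Mad2l2 encodes a subunit of translesion polymerase zeta and Draxin an axon guidance protein. The Draxin/Mad2l2 region had no interval in 3 lists and a percentile of 36.6 to 60.9 in the 5 others, which included 48 h replicate 2. Intervals in both 0 h lists and neither list of a later time were found for 3 members at 48 h (1.70% of all regions), 2 at 72 h (0.706%) and 3 at 96 h (0.940%). They were Smc1b/Ribc2 and 2 regions of Mrps18b/Ppp1r10 at 48 h, Hist1h2bl/Hist1h2ai and Mrps18b/Ppp1r10 at 72 h, and Mrps18b/Ppp1r10, Slc25a23/Crb3 and Cyp24a1/Pfdn4 at 96 h. Cyp24a1 encodes the enzyme that breaks down active vitamin D. Rpl35/Arpc5l, Fhod1/Slc9a5 and Cyp24a1/Pfdn4 each had another region that was present in all 8 lists. The Mrps18b/Ppp1r10 region lost at 72 and 96 h was weak, with percentiles of 7.54 and 7.56 at 0 h. The other region of that pair had an interval in both 72 h lists (66.0 and 65.5) and both 96 h lists (58.5 and 91.3). The fold at Smc1b/Ribc2 was 3.70 and 4.22 (0 h), 4.58 and 3.92 (72 h) and 4.45 in 96 h replicate 1, so its interval was absent at 48 h and from the other 96 h list. As a share of all members, none of these counts exceeded the share over all regions.

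Among pairs long known as bidirectional, Atm/Npat and Mcm4/Prkdc were open throughout. Atm/Npat (chr9:53536487-53537838) joins the kinase of the DNA break response with an activator of histone genes. Its folds were 16.9 and 18.2 (0 h), 12.2 and 12.8 (48 h), 14.3 and 14.6 (72 h) and 12.3 and 22.1 (96 h). The 96 h replicates lay further apart than any of the other replicate pairs. At Mcm4/Prkdc (chr16:15636862-15638166), with a subunit of the replicative helicase and the DNA-dependent protein kinase, the folds were 11.8 and 13.7 (0 h), 10.7 and 8.82 (48 h), 10.3 and 9.50 (72 h) and 9.97 and 10.6 (96 h). The log2 difference of both members from 0 h was at most 0.27 in size (Mcm4/Prkdc at 72 h, −0.27 ± 0.25 SE), and the normalised folds of both overlapped between 0 h and 48 h. At 72 h both libraries lay below both 0 h libraries in each of the 2 members, as in 29.2% of all members and 20.0% of all regions.

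Brca1/Nbr1 (chr11:101551800-101553235) was weaker, with a mean percentile of 76.4 and folds of 8.41 and 6.92 (0 h), 4.59 and 5.81 (48 h), 6.95 and 6.18 (72 h) and 6.47 and 8.93 (96 h). A single interval spanned both of its TSSs in 4 of the 8 lists. Tk1/Afmid, with the thymidine kinase of the S phase, was the weakest of the known pairs. It had an interval in 5 lists (both 48 h, both 96 h and 0 h replicate 1) and in neither 72 h list, with folds of 2.40 to 3.36. Fen1/Tmem258 and Rpa1/Smyd4, with 2 genes of DNA replication, had mean percentiles of 79.2 and 88.3, and the largest difference of either was 0.36 ± 0.24 (SE), for Rpa1/Smyd4 at 48 h (adjusted p = 0.661). The members that hold metabolic or proteostasis genes included Ppat/Paics (90.4) and Gart/Son (94.3), with enzymes of purine synthesis, Psmb9/Tap1 (81.3), with an immunoproteasome subunit and a peptide transporter, Sirt3/Psmd13 (76.9), Surf1/Surf2 (73.3), Nfs1/Romo1 (94.9), Mrps12/Sars2 (84.7) and Hars/Hars2 (94.2). Col4a1/Col4a2, the paired genes of basement membrane collagen, had a mean percentile of 83.5 and a mean width of 1364 bp. At Hspd1/Hspe1, the mitochondrial chaperonin pair, the fold was 3.28 and 8.23 (0 h), so before normalisation the 0 h replicates enclosed all other libraries but 48 h replicate 1 (3.27). None of the tested members among them was called at any time.

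The members were also grouped by gene function, with lists built mostly from symbol prefixes, which took in some unrelated genes. All 43 members of the DNA replication and repair list were present in all 8 lists, with a median percentile of 91.7. Orc4/Mbd5, Pxmp2/Pole and Pms1/Ormdl1 were among the strongest, with genes of the origin recognition complex, DNA polymerase epsilon and mismatch repair. Their median log2 difference was −0.02 at 48 h, −0.08 at 72 h and −0.04 at 96 h, and 0 of 43 was called at each time. Of the mitosis and cell cycle list, 40 of 42 members were present in all lists, led by Ccnb1ip1/Parp2, Haus8/Myo9b, Cenpj/Parp4 and Cdc27/Myl4, and they included Spcs1/Glt8d1 and Spcs3/Asb5, where Spcs1 and Spcs3 encode signal peptidase subunits. The list had a median percentile of 94.6 and median log2 differences of −0.06, −0.13 and −0.00050. In both lists the median at 48 and 72 h lay below 0, as it did over all members.

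The lists of mitochondrial and synthetic functions were alike. Presence in all 8 lists was 40 of 42 for the mitochondrial ribosome and import, 38 of 39 for oxidative phosphorylation, 38 of 39 for translation, 54 of 57 for RNA processing, 33 of 34 for the proteasome and ubiquitin and 32 of 32 for vesicle traffic, whose symbol prefixes also took in COP9 signalosome genes. Their median percentiles lay between 88.5 (mitochondrial ribosome and import) and 92.6 (proteasome and ubiquitin). The liver metabolism list also took in genes such as Apopt1, Abce1 (a ribosome recycling factor) and Apoo (a protein of the inner mitochondrial membrane), and had 18 of 20 members in all lists and a median percentile of 95.0. It was led by Pomt2/Gstz1, Abca17/Abca3, Bag5/Apopt1 and Aldh6a1/Lin52. No member of any of the 10 lists was called at any time, and the median log2 differences of these 7 lists lay between −0.14 and 0.04.

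The paired replication-dependent histone genes stood apart in several measures. These genes encode the core histones made in S phase, when new DNA is packaged. Of 14 pairs, 11 had a region, and 9 of 14 members were present in all 8 lists (64.3%, against 93.1% of all members). Those 9 had a median percentile of 71.9 and a median width of 500 bp, against 91.7 and 999.5 bp over all members. The median GC content around their summits was 46.0%, with a range of 39.5% to 53.0%, against 65.5% over all members. A CCAAT box was found in 8 of the 9, and a TATA box in 4 of the 9, out of 16 TATA boxes among all 1087 members. The histone genes of the clusters are near-identical copies, and how their shared reads were placed was not checked.

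Their normalised log2 folds had a median difference of −0.29 at 48 h, −0.40 at 72 h and −0.13 at 96 h. Both libraries lay below both 0 h libraries in 5 of 9 histone members at 48 h and in 5 of 9 at 72 h, and above in 0 of 9 at both times. Of all regions, 20.3% and 20.0% lay below and 20.8% and 18.4% above. In the other lists, the counts below at 48 and 72 h were 13 and 14 of 43 for DNA replication and repair, 11 and 15 of 40 for mitosis and the cell cycle, 7 and 12 of 40 for the mitochondrial ribosome and import, 8 and 10 of 38 for oxidative phosphorylation and 10 and 13 of 38 for translation. They were 11 and 18 of 54 for RNA processing, 7 and 8 of 33 for the proteasome and ubiquitin, 9 and 11 of 32 for vesicle traffic and 5 and 7 of 18 for liver metabolism. The counts above in these lists, in the same order, were 7, 5, 6, 5, 4, 8, 10, 4 and 4 at 48 h. At 72 h they were 7, 5, 4, 3, 4, 5, 3, 2 and 5. No histone member was called. The strongest of them, Hist1h2ah/Hist1h2bk (chr13:22035407-22036595), had normalised log2 folds of 3.5 and 3.72 (0 h), 3.06 and 3.12 (48 h), 3.04 and 2.68 (72 h) and 2.69 and 3.88 (96 h). Hist1h2ae/Hist1h2bg (chr13:23570872-23571574) had 2.72 and 2.99 (0 h), 1.88 and 2.23 (48 h), 2.03 and 1.52 (72 h) and 2.01 and 2.86 (96 h). In both, the 48 and 72 h libraries were lower than both 0 h libraries and 1 of the 96 h libraries was lower. The difference of Hist1h2ae/Hist1h2bg at 72 h was −1.08 ± 0.31 (SE; adjusted p = 0.620). Hist1h2ac/Hist1h2bc had 2.85 and 3.08 (0 h) and 3.10 and 2.84 (48 h), with no difference at that time (0.0034), and 72 h replicate 2 gave its lowest value (2.0). Of both 72 h values, replicate 2 had the lower in all 9 histone members. Without it the median difference at 72 h was −0.10, with 5 members lower and 4 higher, and without 72 h replicate 1 it was −0.82. The median at 96 h was 0.0013 without 96 h replicate 1, −0.35 without 96 h replicate 2, −0.36 if 0 h replicate 1 was dropped and −0.05 if 0 h replicate 2 was dropped, and at 48 h the median stayed between −0.34 and −0.23 when any 1 library was left out. The list of 72 h replicate 2 is the one whose name lacks the shared tag, and the part of that in the 72 h values was not tested.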

How the data were processed

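Open chromatin was measured by bulk ATAC-Seq in 8 libraries of mouse hepatocyte nuclei, grouped by the sample labels. Per the study's methods, the authors trimmed reads, mapped them to mm10 with Bowtie2, removed duplicates and called peaks per library with MACS2. Every line of a deposited list gives a ratio, the fold enrichment over local background, and the authors' −log10 p and −log10 q, each cut at a −log10 p of about 2. The deposited display score was not used. The lists hold no counts, so no interval for counting error could be given and the count-based test of the study was not run.

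Lines of the same interval were collapsed, chromosomes 1 to 19, X and Y were kept, and intervals were merged over the 8 lists where they overlapped by at least 1 bp. TSSs were the 5′ ends of GENCODE M21 basic gene records. A region took the fold and the rank of its strongest interval in a list. Log2 folds of the 57473 regions with an interval in all 8 lists were quantile normalised, and log2 widths were not normalised. Each time was compared with 0 h by limma 3.58.1 (R 4.3.3) with all 4 groups in 1 fit, without a block, and Benjamini-Hochberg adjustment over all regions at 0.05. The step was tested on simulated data, where the planted changes were larger than most differences of the members. That test does not tell whether smaller changes would be called. Sequence came from GRCm38.p6 (0 intervals ended past a chromosome), and motifs were matched exactly with Python 3.11.15. The members and the gene lists were chosen with earlier results of these data known. Named members were pairs known as bidirectional, the 3 smallest p in each direction and time, up to 3 gained and 3 lost per time, the 5 highest and 3 lowest percentiles, the 3 widest and narrowest, and the leading 4 of each function list, and a few pairs that meet these rules are not reported here. Whether replicate numbers pair the libraries was checked, and the correlations of replicate differences lay between −0.055 and 0.125. Alternatives concerned the scaling, filters on intervals, the pair definition, the fit and leaving out each library.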

Additional observations from a re-analysis of the deposited data

How the results depend on the processing

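The 6 tests of fold and width called 0 members under all 22 alternatives in which they were run (123 of 123 values), and 0 of all regions. The smallest adjusted p of a member over these settings was 0.176. With a replicate block the tests also called 0 members, with smallest adjusted p of 0.350, 0.653 and 0.796 in fold and 0.826, 1 and 1 in width. The labels give no shared animal or day for a number, so the libraries share only that number. Leaving out each library in turn gave 0 calls, 92.4% to 93.7% of members in all lists, a percentile difference from single promoters of 1.57 to 1.89, and median log2 changes of −0.08 to 0.0041 at 48 h, −0.12 to −0.03 at 72 h and −0.10 to 0.10 at 96 h. The direction of the median change at 48 h rested on 0 h replicate 2. At 96 h the median (−0.00070) was close enough to 0 for its sign to turn without 0 h replicate 2 (0.04), without 96 h replicate 1 (0.10) and with median centring (0.0068), the 50000 strongest intervals (0.015), a q under 0.05 (0.00020) or TSSs up to 500 bp apart (0.00024). The members at an unadjusted p under 0.05 in fold (41, 23 and 13 at 48, 72 and 96 h) also moved to 71, 34 and 21 with limma's trend and to 14, 11 and 4 with regions present in at least 4 of 8 lists. With the trend these were 6.53%, 3.13% and 1.93% of members, against 10.1%, 6.25% and 5.65% of all regions. With at least 4 lists they were 1.24%, 0.975% and 0.355%, against 8.27%, 6.74% and 5.75%.

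The share of members in all 8 lists (93.1%) moved to 87.4% with the 50000 strongest intervals, 94.0% with a −log10 p of at least 3 or a q under 0.05, 93.9% with an overlap of at least 50%, 94.1% with a flank of 0 bp, 95.9% with TSSs up to 500 bp apart, 94.2% without overlapping 5′ ends and 92% with transcript TSSs. The percentile difference (1.71) moved to 0.727 with the 50000 strongest intervals and to 3.27 with regions present in at least 4 of 8 lists. On the logit scale of the within-list rank, the median change was −0.45, −0.45 and −0.22 at 48, 72 and 96 h, against −0.011, −0.030 and −0.018 over all regions on that scale, which is not that of log2 folds. The within-list rank changes the scale and no region or pair, and the settings that moved the share or the percentile difference change which intervals, regions or pairs are counted. The cause of the moves was otherwise not tested. All 14 named changes kept their sign under every setting in which they were run. The within-list rank and the folds as deposited were left out. The changes had been picked for a small p in these same data, so the kept sign is no support. Each pair was followed only at the first time it was named. Of 256 values, 23 moved by at least the standard error of the main difference divided by the square root of 2. The scalings of the counts of members above or below 0 h and the left-out libraries for the histone members, given with those values, were chosen after seeing the data. Unknown depth and 2 libraries per group limit what could be detected.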
